A study of Caenorhabditis elegans with 2 samples.

Results

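The genes ttx-3, ceh-10 and ceh-23 are homeobox genes of the AIY interneuron of Caenorhabditis elegans, and they were chosen by name, 3 of 19973 protein-coding genes. The peaks described are those with a summit in the body of one of these genes or within 5000 bp of it. The optimal IDR list (IDR, irreproducible discovery rate, a measure of how alike peaks rank in 2 replicates) held 2 such peaks of 1891. The pooled list held 15 of 30000, that of replicate 1 held 13 of 30000 and that of replicate 2 held 15 of 30000. AIY is not marked or sorted here: the chromatin came from whole larvae, so no value can be assigned to one cell type.

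The study mapped sites occupied by a tagged CEH-8, a paired-like homeodomain protein, by sequencing the DNA that an anti-GFP antibody brought down with it (ChIP-seq). Strain OP760 carries the mutation unc-119(tm4063) and the insertion wgIs760, in which ceh-8 is joined to a tag of TY1, EGFP and 3xFLAG and unc-119(+) is a rescue marker. Mixed-sex L1 larvae of 6 hours, starved after bleaching, gave 2 biological replicates of 1 group, so there is no contrast between conditions and no test of one. The replicates are 2 biosamples of a single transgenic line, whose tagged ceh-8 is present beside whatever copy the strain has at its own locus. The files do not give read depth, so no interval that needs it could be set.

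AIY lies in the circuits for temperature and odour, and RIA, the neuron for which ceh-8 is a marker, is among its synaptic targets. In AIY, homeodomain proteins act in a cascade. TTX-3, a LIM homeodomain protein, and CEH-10, a paired-like one, bind together to a shared kind of site in AIY genes, ttx-3 itself included, and hold them on. CEH-23 acts downstream of TTX-3 in keeping the identity of the neuron. Homeodomains bind sites with a TAAT core, and paired-class proteins can bind as dimers to TAAT cores that face each other.

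The promoters of ttx-3 and ceh-23 each held 1 IDR peak, and ceh-10 held none. Both peaks lay under 1000 bp upstream of the annotated start, at X:11769513-11769862 (summit 11769688, 310 bp upstream of ttx-3) and III:7838934-7839283 (summit 7839109, 483 bp upstream of ceh-23), in ce11 coordinates. Each was among the 1891 strongest peaks of both replicates. The reference sequence around the 2 summits is shown because it carries the facing TAAT cores described below. One more stretch, 4622 bp upstream of ceh-23, is shown because it holds a second site of the same form. Each is 201 bases of WBcel235 centred on the pooled summit, 5′ to 3′ on the strand of the gene, with every TAAT core (on either strand) and every palindrome of 2 facing cores 3 bases apart in capitals. The ttx-3 stretch is X:11769588-11769788 on the minus strand, the ceh-23 stretches are III:7839009-7839209 and III:7834870-7835070 on the plus strand.
ttx-3 promoter peak: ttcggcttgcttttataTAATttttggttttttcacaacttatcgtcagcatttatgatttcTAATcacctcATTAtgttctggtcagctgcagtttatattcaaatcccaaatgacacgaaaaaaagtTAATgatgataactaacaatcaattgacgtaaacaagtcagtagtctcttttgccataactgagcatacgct
ceh-23 promoter peak: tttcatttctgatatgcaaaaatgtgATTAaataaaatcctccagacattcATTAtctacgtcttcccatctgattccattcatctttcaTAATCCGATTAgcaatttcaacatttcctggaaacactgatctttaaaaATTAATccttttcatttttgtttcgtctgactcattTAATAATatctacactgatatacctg
ceh-23 upstream peak: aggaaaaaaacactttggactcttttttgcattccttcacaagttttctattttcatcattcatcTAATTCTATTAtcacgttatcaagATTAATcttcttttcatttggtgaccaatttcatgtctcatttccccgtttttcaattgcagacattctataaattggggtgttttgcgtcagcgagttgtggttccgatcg

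At the ceh-23 promoter the summit fell on a palindrome. The site TAATCCGATTA (III:7839099-7839109) ran from 10 bp upstream of the summit to the summit base itself, which was also the summit base of replicate 2. The summit of replicate 1, where the peak ranked higher, lay 31 bp downstream of it, past the end of the palindrome. Of the 1891 IDR summits 34 (1.80%) had a palindrome of this form within 50 bp, and in 11 of those 34 its centre lay within 10 bp of the summit. Whether 11 is more than even placement within the window would give was not tested. The share was 0.423% at pooled summits below the IDR list and 0.531% in windows of the same 101 bp centred 500 bp upstream of every protein-coding gene start. A second palindrome, TAATTCTATTA (III:7834935-7834945), lay 25 to 35 bp from the summit of the second strongest pooled peak at ceh-23. No palindrome with this spacing lay within 100 bp of the 2 strongest pooled summits of ttx-3 or of ceh-10.

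TAAT cores were frequent at both promoter summits. Counting both strands, 5 lay within 50 bp of the ceh-23 summit and 3 within 50 bp of the ttx-3 summit. Those at ceh-23 include the 2 facing cores of the palindrome. They also include cores at 39 to 42 and 41 to 44 bp downstream, which overlap. Among all IDR summits 47.8% had at least 1 core, 17.5% had 3 or more and 5.08% had 5 or more. In the windows centred 500 bp upstream of gene starts the shares were 67.4%, 18.1% and 3.45%. At ttx-3, 2 of the cores faced each other, 25 to 38 bp upstream of the pooled summit, with 6 bases between them. This spacing was picked after seeing the sequence, and its share among IDR summits was not counted. The replicate 2 summit, where the peak ranked higher, lay 67 bp downstream of the pooled one, so the facing pair was not within 50 bp of it. Of the ttx-3 cores counted, only that 29 to 32 bp downstream of the pooled summit was within 50 bp of the replicate 2 summit. The intronic ttx-3 peak of pooled rank 3195 had a facing pair with 10 bases between the cores. Neither summit had TAATTA within 50 bp, as 6.93% of IDR summits did. Neither had TAATTG, present at 11.6%, nor the repeat GAGAGA, present at 21.6%.

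Base composition went with these counts. Of the 101 bases around the summit 29.7% were G or C at ttx-3 and 31.7% at ceh-23, while the median over IDR summits was 45.5%. Of the 328 IDR summits with a GC content of at most 35%, 64.9% had 3 or more TAAT cores, 22.6% had 5 or more and 7.62% had the palindrome. The part of base composition in the core counts was not tested. A match is a description of the letters and does not show that CEH-8 binds there.

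**Figure D1:**
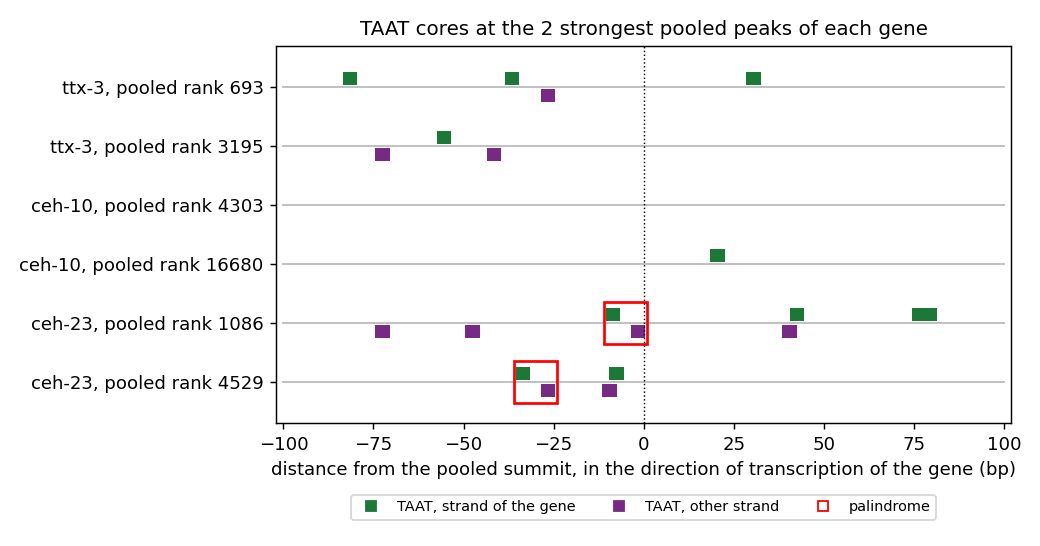
Positions of TAAT cores (green, strand of the gene; purple, other strand) and of palindromes of 2 facing cores 3 bases apart (red boxes) within 100 bp of the 2 strongest pooled summits of each gene; the x axis is the distance from the summit in bp and rows are named by pooled rank. A palindrome ends at the ceh-23 promoter summit (pooled rank 1086), a second lies near the summit of rank 4529, and the strongest pooled peak at ceh-10 (rank 4303) has no core.

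ttx-3 (WBGene00006654, X:11764456-11769378, minus strand) encodes the LIM homeodomain protein of the cascade. The peak in its promoter had a signal, the value by which the authors' list grades a peak, of unstated scale, of 148.504 in the pooled list, rank 693. Its signal was 57.8 in replicate 1, rank 1434, and 88.9 in replicate 2, rank 440. Signals of separate lists are not on one scale, so each was divided by the median of its own list, which gave 2.44 in replicate 1 and 3.62 in replicate 2. The peak was thus well above the typical peak in both lists, and higher in rank in replicate 2. The replicate summits lay 5 bp (replicate 1) and 67 bp (replicate 2) downstream of the pooled one. No other protein-coding gene had this summit in its body or within 5000 bp. The next one upstream, Y102F5A.1, ended 11897 bp from ttx-3. On the other side lact-7, which overlaps the far end of ttx-3 and ends at X:11764535, lay just beyond the limit of 5000 bp.

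Below the IDR list the ttx-3 window held 3 more pooled peaks. The strongest lay in an intron, 1656 bp inside the start of the longer transcript, with signal 69.6 and rank 3195. It ranked 3363 in replicate 2, with a summit 26 bp away. In replicate 1 the nearest summit was 168 bp away in a coding exon and ranked 10177. This intronic peak lies 322 bp inside the start of the shorter of the 2 annotated transcripts of ttx-3. The promoter peak had 2.13 times its signal in the pooled list. A peak in a coding exon near the far end of the gene (rank 11119) had a counterpart in both replicates, and one 3891 bp upstream (rank 20985) had one in replicate 2 only.

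ceh-23 (WBGene00000446, III:7839592-7841491, plus strand) encodes the downstream homeodomain protein. Its promoter peak had a signal of 119.606 in the pooled list, rank 1086. The signal was 66.2 in replicate 1, rank 1119, or 2.80 times the median of that list. It was 48.7 in replicate 2, rank 1623, or 1.98 times the median. The promoter peak had 2.32 times the signal of the next peak in the window in replicate 1, but 1.33 times in replicate 2. Here replicate 1 gave the higher rank, the opposite of ttx-3, and the replicate 2 rank was close to the limit of 1891. The deposited −log10 q of the peak was 2.65 in replicate 1 and 0.669 in replicate 2, while that of the ttx-3 promoter peak was 2.10 in replicate 1 and 1.99 in replicate 2. The replicate 1 summit lay 31 bp from the pooled one, and that of replicate 2 was at the same base. The window of the neighbour ZK652.8, which lies 644 bp past the end of ceh-23 on the other strand, also takes in this summit, while the nearest gene start is that of ceh-23.

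The ceh-23 window held 5 weaker pooled peaks. With the promoter peak this made 6, and 24.7% of all genes had at least as many in the pooled list. The upstream gene kcmf-1 ends 7098 bp before ceh-23, and 4 pooled peaks below the IDR list lay in this interval within 5000 bp of ceh-23, and 1 more in an intron. The deposited −log10 q-values of these 5 were 0.020 to 0.106, against 1.77 for the promoter peak. The strongest of these 5, at 4622 bp upstream, had signal 62.1 and rank 4529. Its rank was 8700 in replicate 1, against 3612 in replicate 2, and it was the only one of the 5 with a summit within 200 bp in both. The other 4 had one in replicate 2 and none in replicate 1. Just past the IDR list and outside the window, 6836 bp beyond the end of ceh-23, a peak on the non-coding RNA gene ZK652.15 had signal 86.7, rank 1947, where the lowest IDR signal was 88.0.

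ceh-10 (WBGene00000435, III:5799047-5801115, plus strand), the gene of the paired-like partner of TTX-3, had no IDR peak, and its windows in the 2 replicates did not share their strongest peak. The gene sits whole in a single intron of polq-1, a DNA polymerase gene on the other strand (intron III:5798564-5801222), so a peak over it lies in polq-1 as well. In replicate 1 the strongest peak lay in a coding exon of ceh-10, 659 bp inside the start, with signal 35.6 and rank 4357. Replicate 2 had no peak within 200 bp of it, and the pooled list had one at rank 17144. In replicate 2 the strongest peak lay 3423 bp from the start, in the promoter of him-10, with signal 27.8 and rank 9963. The promoter of ceh-10 held a pooled peak 362 bp upstream at rank 18288, with a replicate 2 peak at rank 21335 and none in replicate 1.

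The strongest pooled peak in the ceh-10 window was not at ceh-10. It lay 4992 bp past its end, just inside the limit of 5000 bp, in a coding exon of R12B2.3, with signal 63.1, rank 4303 and a −log10 q of 0.120. It ranked 4637 in replicate 1. The matching replicate 2 summit, rank 14971, fell just outside the limit. Within 1000 bp or 2000 bp of ceh-10 the best pooled rank was 17144, past the middle of the list.

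**Figure D2:**
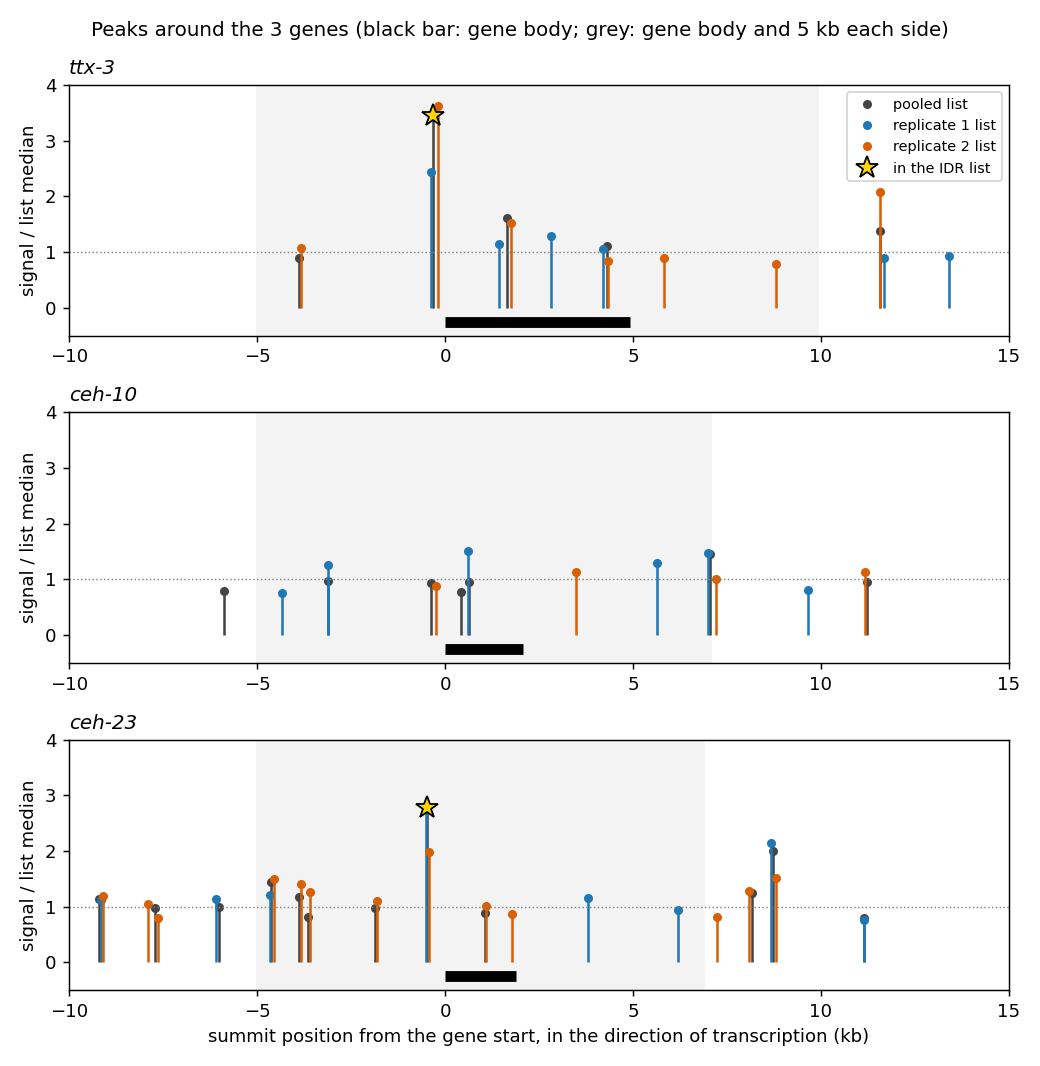
Peak signal divided by the median signal of its list (y axis, no unit) against the position of the summit from the gene start in kb (x axis), for the pooled list (dark grey), replicate 1 (blue) and replicate 2 (orange), which are drawn slightly apart; the grey area is the gene body (black bar) with 5000 bp on each side, stars are IDR peaks and the dotted line is the list median. In both replicates the strongest peak in the window is the promoter peak at ttx-3 and at ceh-23. At ceh-10 the replicates do not share their strongest peak. In replicate 2 the ceh-23 peak has only 1.33 times the signal of the next peak in its window, close to the 1.28 times at ceh-10.

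The 3 genes were then set beside all protein-coding genes. Of the 3, 2 had an IDR summit in the window, where 21.2% of the 19973 genes had one. The same 2 had an IDR summit found in both replicates, that is with one of the 1891 strongest summits of each within 200 bp, where 13.5% of genes had one. They also had one of the 1891 strongest summits of replicate 1 (20.6% of genes) and one of replicate 2 (20.7% of genes). A best pooled rank at least as good as that of ttx-3 was held by 9.37% of genes, as good as that of ceh-23 by 13.9% and as good as that of ceh-10 by 37.8%. The ceh-10 rank is that of the peak 4992 bp past its end. With 3 genes chosen by name these shares are a description, and they are no test of whether the 3 differ from other genes.

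Both IDR peaks shared a position and a repeat. Each lay in the 1000 bp upstream of a gene start, as did 44.5% of all IDR summits. Each had a summit among the 1891 strongest of both replicates within 200 bp, as did 58.0% of all IDR peaks. At any rank, 93.3% of all IDR peaks had a summit within 200 bp in both replicates. Of the 13 weaker pooled peaks in the 3 windows, 4 (30.8%) had a summit within 200 bp in both replicates at any rank, and 34.2% of all pooled peaks below the IDR list had. The number of peaks at any rank was 4 at ttx-3, 5 at ceh-10 and 6 at ceh-23 in the pooled list, where all genes averaged 4.02. It was 4, 5 and 4 in replicate 1 but 6, 2 and 7 in replicate 2, so the place of ceh-10 by number differed between the replicates.

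The order of ttx-3 and ceh-23 by best rank was not stable, while ceh-10 was last in all 3 lists. ttx-3 was ahead of ceh-23 in the pooled list (693 and 1086) and in replicate 2 (440 and 1623). In replicate 1 it was behind (1434 and 1119). The replicate ranks of these 2 genes overlap, so their difference is within the spread of the replicates. Those of ceh-10, 4357 and 9963, lie outside the range of both and belong to different peaks. For scale, the strongest peak within 5000 bp of ceh-8, a gene that the insertion itself carries, ranked 36 in replicate 1 and 18 in replicate 2.

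**Figure D3:**
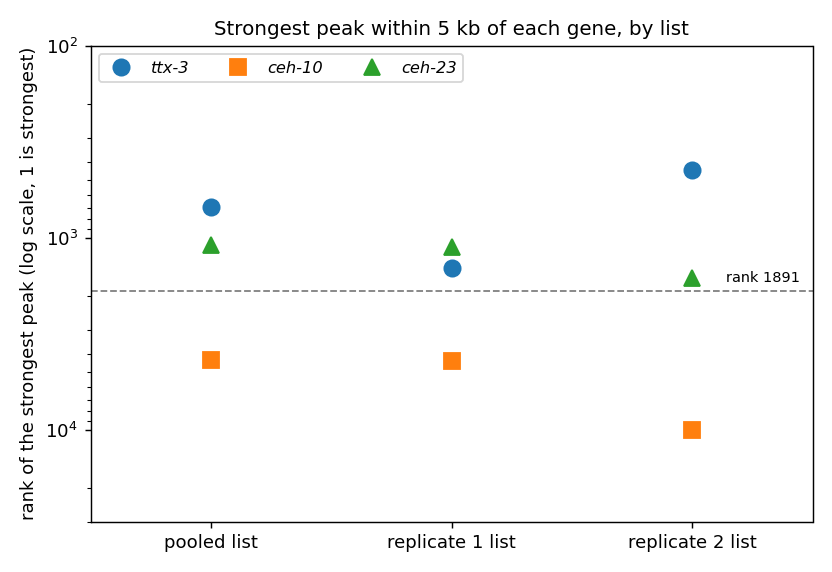
Rank (log axis, 1 is strongest) of the strongest peak within 5000 bp of ttx-3 (circles), ceh-10 (squares) and ceh-23 (triangles) in the pooled list and in each replicate; the dashed line is rank 1891, the length of the IDR list. The ranks of ttx-3 and ceh-23 stay above the line and change places in replicate 1, and those of ceh-10, between 4303 and 9963, stay below it.

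Whether other genes of AIY carried peaks was looked at with 9 genes that the neuron is known to use. Of these, 1 had an IDR peak in the window (11.1%, against 21.2% of all genes), and 0 had one found in both replicates. The gene was nlg-1, for the synaptic adhesion protein neuroligin. Its 2 peaks lay in an intron (signal 106.367, rank 1346) and 1167 bp upstream (signal 100.254, rank 1513). They ranked 2514 and 2117 in replicate 1 and 928 and 1418 in replicate 2, so replicate 1 had neither among its 1891 strongest.

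The other 8 AIY genes had no IDR peak. For kal-1, which encodes an extracellular matrix protein, the best pooled rank of 2009 was just past the IDR list, with 828 in replicate 1 and 2421 in replicate 2. The serotonin-gated channel gene mod-1 had a best rank of 2767, and hen-1, for a secreted protein of sensory integration, 3664. At unc-17, the vesicular acetylcholine transporter gene, replicate 1 had a peak of rank 246, while its best rank was 5696 in replicate 2 and 9266 among pooled peaks. The choline transporter gene cho-1 had a best pooled rank of 8289, glc-3, for a glutamate-gated chloride channel, 6553, the amine receptor gene ser-2 5409 and the receptor gene sra-11 20171. The median best pooled rank of the 9 was 5409, and that of all genes with a pooled peak was 5986. AIY genes as listed were longer than most, with a median of 4837 bp against 2027 bp over all genes, which makes their windows longer.

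Other homeobox genes were counted by class. Of 6 other LIM homeobox genes 1 had an IDR peak, lim-7 (16.7%), in an intron 5805 bp inside its start, with signal 251.092 and rank 196, and ranks 320 and 173 in replicates 1 and 2. Of 12 paired-like homeobox genes besides ceh-8 and ceh-10 1 had one, ceh-54 (8.33%), with signal 174.124 and rank 485, and ranks 444 and 714 in the replicates. That summit lay 3743 bp upstream of ceh-54, in an intron of the neighbouring gene daf-9, whose start was nearer. Of 6 Hox genes 0 had one. ceh-23 lies on chromosome III as do the Hox genes ceh-13 and lin-39, which end 281551 bp and 302960 bp before it. By IDR peaks, all 4 groups of genes lay below the share of all genes, 21.2%. Each count is 0 or 1 gene, too few to read as a difference. The LIM, paired-like and Hox genes were also longer than most, with medians of 5982.5, 3701.5 and 4931.5 bp against 2027 bp over all genes. When only replicate 1 and its 1891 top-ranked peaks were used, 2 of 9 AIY genes (22.2%, unc-17 and kal-1) and 2 of 6 LIM homeobox genes (33.3%, lim-7 and lin-11) had a peak, above the 20.6% of all genes. Replicate 2 by itself gave 1 of 9 and 1 of 6. No difference from all genes was tested.

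**Figure D4:**
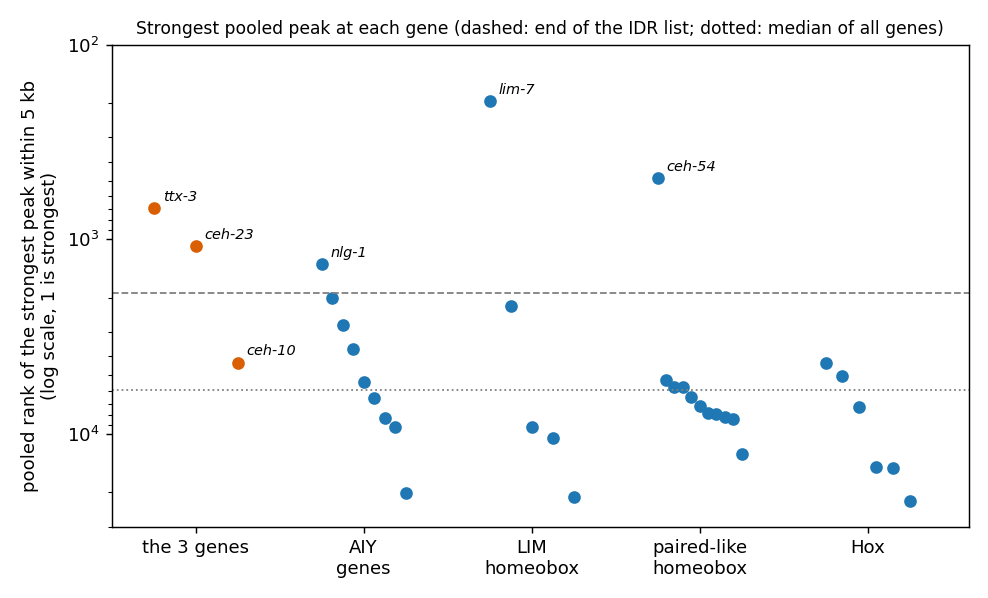
Pooled rank (log axis, 1 is strongest) of the strongest peak within 5000 bp of ttx-3, ceh-10 and ceh-23 (orange) and of each gene of 4 lists (blue, 1 point a gene; lim-4 and ceh-45 had no pooled peak in the window); the dashed line is rank 1891, the end of the IDR list, and the dotted line is the median of all genes, 5986. Above the dashed line are ttx-3, ceh-23, nlg-1, lim-7 and ceh-54.

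Genes with the most similar ranks were looked for by distance between log10 best ranks in the pooled list and both replicates, over 3 lists. For ttx-3 they were ins-6, an insulin-like peptide gene (ranks 680, 1449 and 442 in the pooled list, replicate 1 and replicate 2), nlp-18, a neuropeptide gene (663, 1421 and 423), and col-38, a collagen gene (756, 1584 and 439). For ceh-23 the 3 nearest, dhs-8, vnut-1 and cysl-2, share 1 peak on chromosome II with ranks 1128, 1196 and 1590. For ceh-10 they were F55D1.1, F46B3.7 and anp-1. The best ranks of ceh-10 came from a different peak in each of the 3 lists, so no single site had all of them. All 3 lists were required to hold a peak, which 17864 genes met.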

How the data were processed

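Per the file headers, the authors called peaks per replicate and on both replicates together, each time against a control, and derived the optimal IDR list from these 3. The deposited signal of each peak, of unstated scale, ranks peaks within a list. The deposited −log10 q-values served as an alternative ranking. The caller, aligner and IDR cut were not given in the sources used here. Per the labels, fragments were 200 to 800 bp. The files name ce11, and gene models (Ensembl release 115) and sequence are of WBcel235, the same assembly: 0 peaks ran past a chromosome end and 99.9% of start codons read ATG. All 1891 IDR peaks were the strongest pooled peaks.

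Summits were counted in gene bodies extended by 5000 bp. Peaks matched where summits lay within 200 bp. Motifs were sought on both strands within 50 bp of summits; overlapping matches counted, and a palindromic match counted once. The genes, gene lists and motifs were chosen with earlier results of these data known, so no p-values are given. Named were the 3 genes, genes sharing their IDR peaks, genes of the lists with an IDR peak and the 3 most similar genes by rank. The ranks of the other AIY genes, the windows 500 bp upstream of starts, the GC limit of 35%, facing cores with 6 bases between them and the ZK652.15 peak were chosen after seeing the values. Window counts, peak matching and the search for TAATTA recovered the planted answers on simulated data. Palindromes, facing cores and counts of TAAT cores were not planted. Python 3.11.15, numpy 2.4.6 and pandas 2.3.3 were used.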

Additional observations from a re-analysis of the deposited data

How the results depend on the processing

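The presence of an IDR peak at ttx-3 and ceh-23 and its absence at ceh-10 held with windows of 1000, 2000 and 10000 bp, with any overlap of the peak, with the nearest gene start and with the strongest peaks of either replicate alone. At ttx-3 and ceh-23 these windows and the overlap rule could not remove the peak, since the summits lie 310 and 483 bp outside the genes. At ceh-10 windows of 1000 and 2000 bp could not add one, since 5000 bp held none. Counting the gene body alone gave 0 at ttx-3 and 0 at ceh-23, since both peaks lie upstream. The stronger 50% of the IDR list held 0 peaks at ceh-23 and 1 at ttx-3, which follows from their ranks of 1086 and 693. The share of all genes with a peak in that part of the list is not given here. Sharing between the replicates did not change with summits within 100 or 500 bp, with overlap of 50% of each peak or at any rank. The limit of 500 bp and the use of any rank only loosen a match already met, so they could not remove it. Ranked by −log10 q, the best pooled ranks were 599 at ttx-3, 4300 at ceh-10 and 1065 at ceh-23. Spearman's rho of −log10 q with signal was 0.155 over pooled peaks, 0.99996 in replicate 1 and 0.491 in replicate 2. Stronger pooled peaks at these genes ranked much alike by both values, such as 3195 and 3196 for the intronic ttx-3 peak. A weak one at ceh-10 moved from 29933 to 6608. For the best peaks the −log10 q ranking is therefore no independent check. The best pooled rank at ceh-10 was 17144 within 1000 bp and within 2000 bp. Over the whole peak there were 5 TAAT cores at ttx-3 and 13 at ceh-23, and within 100 bp of the ceh-23 summit 8. Among the lists, the stronger 50% of IDR peaks left 0 AIY genes, and windows of 1000 and 2000 bp left 0 paired-like genes. Fewer peaks or narrower windows can also lower the share of all genes, which is not given here for these settings. These drops are therefore no result about the lists. With 1 replicate at a time the count was 1 to 2 for AIY genes and 1 to 2 for LIM homeobox genes: replicate 1 alone gave 2 in each and put both lists above the share of all genes, where the IDR list put them below it. No paired analysis was possible because the 2 samples form 1 group. With 2 replicates of unknown depth, a peak absent from a list of 30000 is not shown to be an unoccupied site.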
